A study of Mus musculus with 162 samples.

Results

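Cajal Retzius cells and CGE-derived cells are classes of neuron that lie side by side in the outer cortex before birth but differ in birthplace and transmitter. They were compared here among the mouse embryo cells of the Htr3a Cre line that passed the submitters' quality control: all 12 cells labelled Cajal Retzius against all 11 labelled CGE-derived, 23 of the 162 cells of the series. In the Htr3a Cre line, Cre recombinase is driven from the gene of the serotonin receptor subunit Htr3a, so both groups carry the same driver, and both came from embryos at E17.5 to E18.5. No treatment is named for either group. The labels do not spell out CGE, which the gene lists took as the caudal ganglionic eminence. Each sample is the cytosol of 1 cell drawn into a patch-clamp pipette and sequenced. The labels do not tie cells to animals, litters or cultures. With no such unit to replicate over, a group is treated as 1 sample, no difference was tested, and the values describe these cells.

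Cajal Retzius cells are transient neurons of the marginal zone, the outermost layer of the developing cortex. They arise early, from several edges of the cortical primordium such as the cortical hem, release glutamate, and secrete reelin, the glycoprotein that guides the layering of later neurons. Most of them die after birth. Interneurons of the caudal ganglionic eminence arise later in the ventral forebrain under the control of Dlx transcription factors, make GABA, and migrate tangentially into the cortex, where many settle in the superficial layers. Some of them go on to make reelin as well, and many carry the receptor subunit Htr3a.

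The Cajal Retzius cells held 6554657 to 19119670 counts each in 4140 to 10925 genes (median 6714). The CGE-derived cells held 4682512 to 16067637 counts in 2956 to 8295 genes (median 4894). The Cajal Retzius cells thus held more genes, and the share of counts from mitochondrial genes was 0.165% to 1.58% in them against 0.122% to 6.6%. The titles number 8 of the 12 Cajal Retzius cells below 38 and all CGE-derived cells at 38 or above. What these numbers stand for is not given in the sources used here, so a batch in them and the label cannot be told apart for those 8 cells, and results are also given for the 4 Cajal Retzius cells of the shared range where they matter. Cajal Retzius cell 12 stood apart from its group, as described with the interneuron genes. Microglia markers, genes of the brain's resident macrophages, summed to 953 CPM (counts scaled to the same total in every cell) in Cajal Retzius cell 8, 455 in cell 3 and 203 in cell 10, to 109 in CGE-derived cell 2, and to at most 70.2 in the other cells.

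Unless stated otherwise a group's level is the CPM of its cells' counts added together. Such levels weight deeper cells more, and they compare 1 gene between groups, not genes with each other. The log2 difference is the mean of log2(CPM + 1) over the Cajal Retzius cells less that over the CGE-derived cells. A gene was called higher in a group where this difference was at least 1, the summed levels differed at least 2-fold the same way, and at least 4 cells of the higher group held a count. Intervals of ratios cover counting error only, and because the reads carry no molecular identifiers and can be copies of 1 molecule, they are too narrow even for that. For ratios a group with no count was set to 3 counts. A fold given as at least some value is therefore a bound for reads and not for molecules.

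Of the 4 fixed markers Slc17a6, Adarb2 and Gad1 separated every cell of the groups, and Reln did so for all but 1 cell of each. Reln, which encodes reelin, stood at 2543 to 17602 (median 10218) CPM across the Cajal Retzius cells and at 0 to 2862 (median 385) across the CGE-derived cells. The groups overlapped in this gene through CGE-derived cell 1, at 2862, and Cajal Retzius cell 1, the lowest of its group. Among the other CGE-derived cells 7 lay between 232 and 976 CPM, and 3 at or below 0.0817. Reln was 18.9-fold higher in Cajal Retzius cells by summed counts, and 8 of 11 CGE-derived cells still held at least 200 CPM of it.

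Slc17a6, the vesicular glutamate transporter VGLUT2 that loads glutamate into synaptic vesicles, was present in every Cajal Retzius cell at 59.01 to 1529.9 (median 366) CPM. It had no count in 10 CGE-derived cells and 27.2 CPM in CGE-derived cell 7, below every Cajal Retzius cell. Adarb2, a member of the RNA adenosine deaminase family that marks caudal interneurons, had no count in any Cajal Retzius cell. By read depth alone this allows up to 0.0192 CPM for the group. Adarb2 stood at 166 to 2455 (median 1248) CPM in the CGE-derived cells and was at least 63062-fold higher there. Gad1, the enzyme that makes GABA from glutamate, ranged over 303 to 2489 (median 531) CPM in CGE-derived cells, while only Cajal Retzius cells 6 and 10 held any, at 0.233 and 5.96 CPM. For Slc17a6, Adarb2 and Gad1 the groups did not overlap. No Cajal Retzius cell and only CGE-derived cell 7 held both Slc17a6 and Gad1 at 10 CPM or more. How the submitters assigned the labels is not given in the sources used here, so these genes may have been used to set them and are no independent evidence of the labels.

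On build GRCm38, Reln (ENSMUSG00000042453) lies on chromosome 5 from 21884454 to 22344702 on the minus strand. Slc17a6 (ENSMUSG00000030500) lies on chromosome 7 from 51622006 to 51671119 on the plus strand, Adarb2 (ENSMUSG00000052551) on chromosome 13 from 8202866 to 8768747 on the plus strand, and Gad1 (ENSMUSG00000070880) on chromosome 2 from 70553072 to 70602014 on the plus strand. All are protein-coding genes, and the counts are reads per gene. The RefSeq windows around their starts on GRCm38.p6, 250 bases before to 50 bases after, are printed because the comparison starts from these genes, with the letters TAATTA, the core that many homeodomain factors such as the Dlx and Lhx proteins can bind, in capitals.
Reln, chr5:22344656-22344955, minus strand: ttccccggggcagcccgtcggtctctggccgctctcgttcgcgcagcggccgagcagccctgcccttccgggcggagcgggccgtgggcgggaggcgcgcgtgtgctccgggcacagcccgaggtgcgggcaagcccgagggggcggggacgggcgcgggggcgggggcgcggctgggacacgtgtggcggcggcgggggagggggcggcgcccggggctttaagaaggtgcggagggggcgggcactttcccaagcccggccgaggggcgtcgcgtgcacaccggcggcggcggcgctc
Slc17a6, chr7:51624387-51624686, plus strand: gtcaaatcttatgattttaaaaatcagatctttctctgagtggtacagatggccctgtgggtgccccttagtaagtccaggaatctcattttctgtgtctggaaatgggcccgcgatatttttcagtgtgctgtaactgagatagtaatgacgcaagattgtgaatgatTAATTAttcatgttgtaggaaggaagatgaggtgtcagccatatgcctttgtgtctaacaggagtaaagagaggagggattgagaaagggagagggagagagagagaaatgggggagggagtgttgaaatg
Adarb2, chr13:8202616-8202915, plus strand: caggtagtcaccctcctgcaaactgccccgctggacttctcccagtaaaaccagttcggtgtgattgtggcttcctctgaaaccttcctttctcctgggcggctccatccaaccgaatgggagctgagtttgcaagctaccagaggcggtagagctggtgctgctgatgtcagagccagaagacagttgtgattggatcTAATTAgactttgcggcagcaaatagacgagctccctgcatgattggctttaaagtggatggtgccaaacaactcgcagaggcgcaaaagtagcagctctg
Gad1, chr2:70561879-70562178, plus strand: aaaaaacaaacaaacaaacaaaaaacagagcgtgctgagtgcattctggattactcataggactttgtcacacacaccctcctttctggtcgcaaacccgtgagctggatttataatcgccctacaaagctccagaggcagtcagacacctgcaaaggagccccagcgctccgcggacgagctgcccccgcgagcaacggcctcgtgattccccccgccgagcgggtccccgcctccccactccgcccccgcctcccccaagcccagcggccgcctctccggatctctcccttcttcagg
The printed windows of Slc17a6 and Gad1 use RefSeq starts that lie inside the gene bounds given above. The word TAATTA reads the same on both strands. It occurred once in 1 of the 2 windows of Slc17a6, the one printed, starting 81 bases before the start of transcription, and once in that of Adarb2, starting 51 bases before it. The windows of Reln and Gad1 did not hold these letters. Of all 27025 genes with a window, 6.12% held them. Windows were found for 9 of the 12 genes of largest difference toward Cajal Retzius cells and for 8 of the 12 toward CGE-derived cells, of which 0 and 1 (Adarb2) held the word. A match is a run of letters and not a shown binding site.

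**Figure D1:**
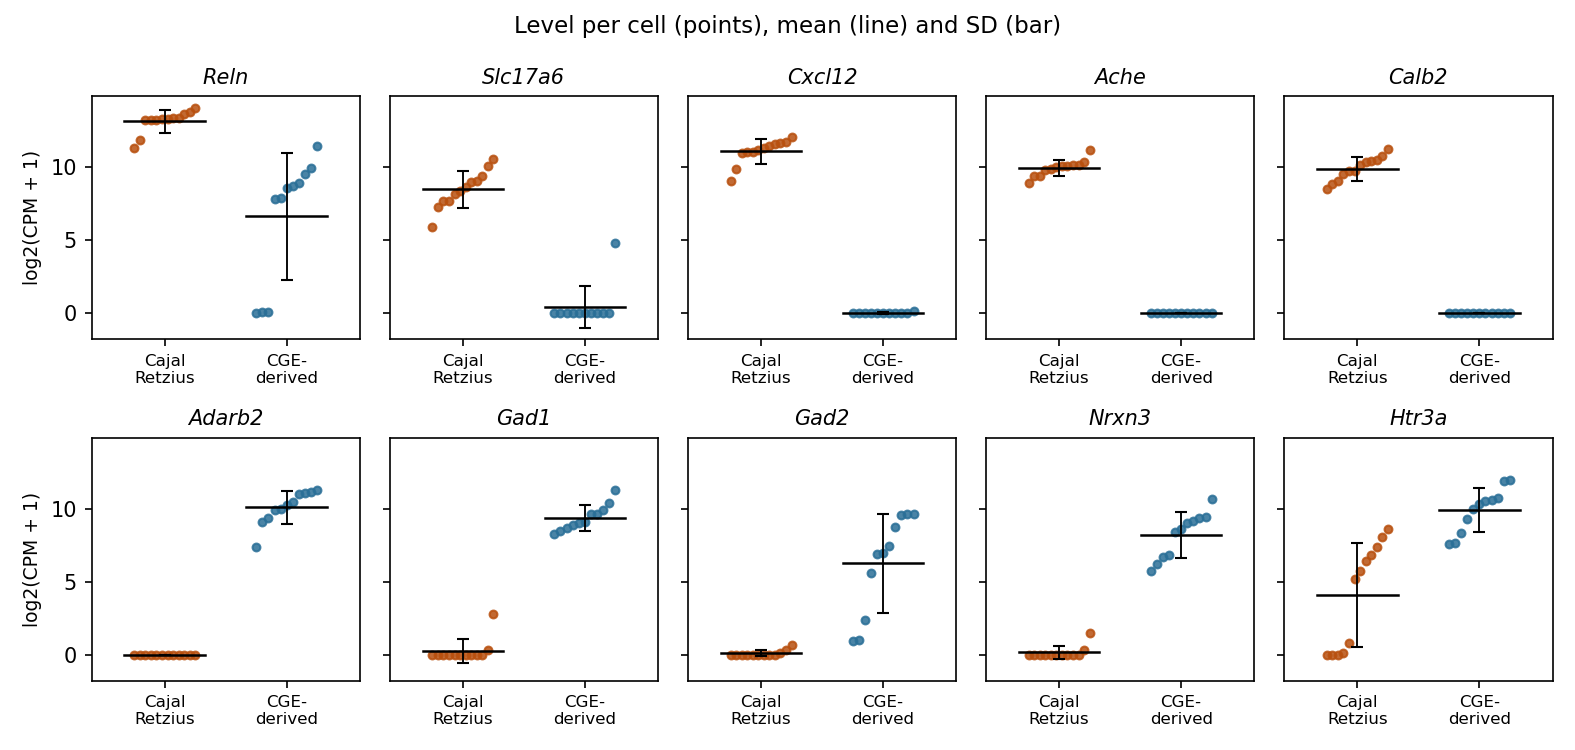
Each panel shows 1 gene, with the level per cell as log2(CPM + 1) on the vertical axis, points for the 12 Cajal Retzius (orange) and 11 CGE-derived cells (blue), a line at the mean and a bar of 1 SD between cells. Slc17a6, Cxcl12, Ache and Calb2 in the upper row and Adarb2, Gad1, Gad2 and Nrxn3 in the lower row do not overlap between groups, whereas Reln and Htr3a do.

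Over all 15925 genes with a count in any of the 23 cells, 2604 (16.4%) were called higher in Cajal Retzius cells and 835 (5.24%) in CGE-derived cells. The median log2 difference over these genes was 0.35, and 0 by summed counts. Among the 9 Cajal Retzius and 9 CGE-derived cells in the range of gene number that both groups shared (4140 to 8295 genes) the calls were 1942 and 1256, and that median was 0.05. Thinning every cell to the lowest total, 4682512 counts, left 2624 and 810. The excess of calls toward Cajal Retzius cells was thus smaller among the cells in the shared range of gene number, and not smaller after thinning. The range holds fewer cells, and gene numbers were not matched within it. The part of gene number or depth in the excess was not tested.

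In 26 genes (0.163%) every Cajal Retzius cell lay above every CGE-derived cell, and in 8 genes (0.0502%) every CGE-derived cell lay above every Cajal Retzius cell. A count in all 12 Cajal Retzius cells and in none of the 11 others was found for 7 genes: Ache, Calb2, Car10, Fkbp9, Nrg1, Ramp1 and Tmem163. The reverse was found for Adarb2 alone. These sets include markers on which the labels may rest.

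**Figure D2:**
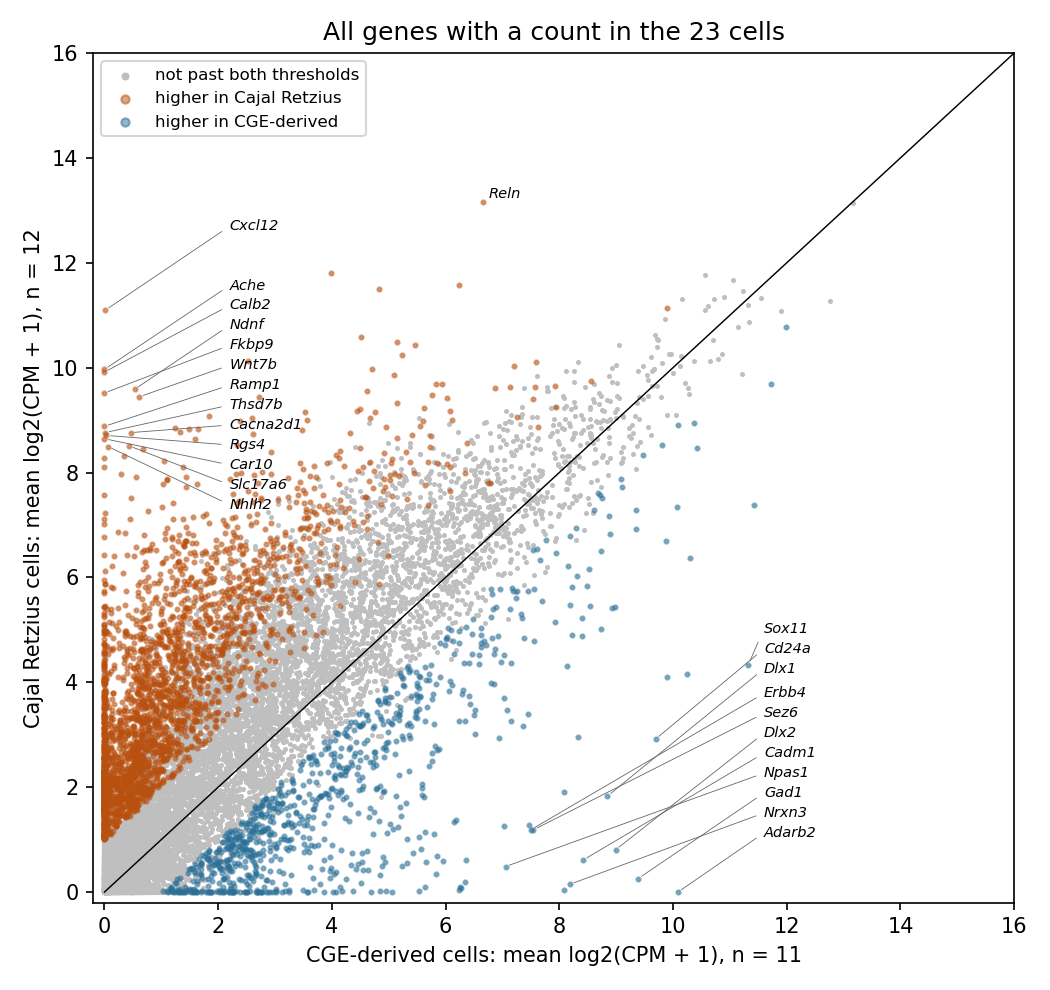
Each point is 1 of the 15925 genes, with the mean log2(CPM + 1) over the 11 CGE-derived cells on the horizontal and over the 12 Cajal Retzius cells on the vertical axis, coloured by its call. Labelled are Reln, Slc17a6, the 12 genes of largest difference toward Cajal Retzius and 11 of the 12 toward CGE-derived cells, many of which lie on or near an axis, that is, at a mean of about 0 in the other group.

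The genes of largest difference toward Cajal Retzius cells are given with their roles, secreted factors first. Cxcl12, a chemokine of the meninges and marginal zone that holds Cxcr4-bearing neurons near the surface, had the largest difference of all named genes (11.08). It stood at 533 to 4333 (median 2459) CPM in the Cajal Retzius cells, and 1 read in CGE-derived cell 6 was its only count in that group. The ratio of levels was 276690-fold (95% counting interval 49660.1 to 10928700). Ndnf, a secreted factor of superficial neurons, stood at 331 to 1525 (median 769) CPM, where CGE-derived cell 9 held 51.7, cell 5 0.104 and the other 9 no count. The Wnt ligand Wnt7b ranged over 97.04 to 1646 (median 976) CPM. It had a count in no CGE-derived cell but cell 5, which at 105 CPM lay above Cajal Retzius cell 1 (97.04), so the groups overlapped. Outside the 12 largest differences, the Erbb4 ligand gene Nrg1 was present in all 12 Cajal Retzius cells at 0.582 to 359 (median 45.8) CPM. It had no count in any CGE-derived cell.

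Ache, acetylcholinesterase, stood at 481 to 2344 (median 1072) CPM in Cajal Retzius cells and at 0 in all CGE-derived cells, at least 42854-fold higher. Calb2, the calcium buffer calretinin, stood at 359.6 to 2467 (median 995) CPM against 0 counts. Calretinin is used as a marker of both Cajal Retzius cells and a subset of adult caudal interneurons. Here the 11 CGE-derived cells held no count of it, which by read depth alone allows up to 0.0256 CPM for the group. Fkbp9, a peptidyl-prolyl isomerase of the endoplasmic reticulum, ranged over 99.3 to 1353 (median 936) CPM against 0. Ramp1, a subunit of the receptor for the peptide CGRP, ranged over 121 to 1054 (median 619.8) CPM against 0. The groups did not overlap for any of these 4 genes.

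The rest of the 12 largest differences toward Cajal Retzius cells were Thsd7b, Rgs4, Car10, Nhlh2 and Cacna2d1. Thsd7b, a thrombospondin-repeat membrane protein gene, stood at 149 to 1074 (median 438) CPM against 1 read in all CGE-derived cells, a ratio of 64431-fold (95% counting interval 11564 to 2544930). Rgs4, a brake on G-protein signalling, was at 559 CPM or more in 10 of the 12 cells, but cells 9 and 12 held only 0.121 and 0.526. In the 4 Cajal Retzius cells of shared title range the log2 difference of Rgs4 was 5.06, against 8.67 in all 12. Nhlh2, a basic helix-loop-helix factor of young neurons, ranged from 163 to 1468 CPM in 11 cells and was at 0 in cell 12. Cacna2d1, an auxiliary subunit of voltage-gated calcium channels, stood at 245 to 1243 (median 418) CPM against a count in CGE-derived cell 7 alone (32.2 CPM).

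Lists of genes, chosen with earlier results of these data known, place these within groups. The labels may rest on markers among them, so calls in the marker lists are no independent evidence of the labels. Calls in each list stand against shares of 16.4% toward Cajal Retzius and 5.24% toward CGE-derived cells over all genes. Of 17 Cajal Retzius cell markers 12 were called higher in Cajal Retzius cells and 0 in CGE-derived cells, with a median log2 difference of 4.72, where the median over all genes of the table was 0. Eomes had no count in the 23 cells. Trp73, the p53 relative p73 of hem-derived Cajal Retzius cells, stood at 0.931 to 1050.3 (median 415) CPM against 8.41 in CGE-derived cell 6 alone, and Cajal Retzius cell 3 was the low one at 0.931. The LIM homeodomain genes Lhx1 (0 to 310.3, median 39.2) and Lhx5 (0 to 622, median 118) were at 0 in Cajal Retzius cells 9 and 12. The factors Ebf2 (in 9 of 12 cells, none of the 11 others) and Ebf3 (9 of 12 against 1 of 11 cells) were also uneven within the group. Tbr1, a T-box factor of early glutamatergic neurons, was 20.1-fold higher (167 against 8.29 CPM). The members that were not called besides Eomes included Cxcr4, the receptor of Cxcl12, at 12.7 against 26.8 CPM and in 11 of 12 against 8 of 11 cells. In the 4 Cajal Retzius cells of shared title range the list's median was 3.18.

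Most listed genes of GABA synthesis and transport and most ventral forebrain factors were called toward CGE-derived cells. After Adarb2 and Gad1 the homeobox gene Dlx2 had a log2 difference of -8.18. Gad2, the second GABA-making enzyme, was found in all 11 CGE-derived cells but unevenly, at 0.888 to 799 (median 122) CPM, and at most at 0.584 in a Cajal Retzius cell, without overlap. Slc32a1, the vesicular GABA transporter, had a count in 8 of 11 CGE-derived cells (22.9 CPM) and in no Cajal Retzius cell. Thus 4 of 6 genes of GABA synthesis and transport were called higher in CGE-derived cells (list median -4.56). Abat, the enzyme that breaks GABA down, went the other way. It was 7.27-fold higher in Cajal Retzius cells, at 7.82 to 1443 (median 701) against 0 to 349.6 (median 5.86) CPM, with overlap between the groups.

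Of 11 ventral forebrain transcription factors 10 were called higher in CGE-derived cells and 0 in Cajal Retzius cells (median -2.58), and Gsx2, the other one, had no count. Dlx1 (232 to 1115, median 487) and Dlx2 (149 to 992, median 602) were present in all 11 CGE-derived cells. Pbx3, a homeobox cofactor, and Dlx6 had no count in any Cajal Retzius cell and 59.4 and 21.9 CPM in CGE-derived cells. Sox11, a factor of newborn neurons, stood at 1115 to 6086 (median 2424) CPM in CGE-derived cells and at 0 to 1055 (median 22.8) in Cajal Retzius cells, where cell 12 held the highest value, with no overlap. Dcx, the microtubule protein doublecortin of migrating neurons, was 16.7-fold higher in CGE-derived cells (1469.7 against 88.1 CPM) and present in 10 of 12 Cajal Retzius cells.

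Most caudal interneuron markers were higher in the cells labelled for that origin. Of 17 listed, 11 were called higher in CGE-derived cells and 1, Calb2, in Cajal Retzius cells (median -3.33). Prox1, a homeobox factor of caudal interneurons, was at 10 CPM or more in 7 CGE-derived cells, up to 1283, and at 0 in the other 4. Sp8, a zinc-finger factor, was found in 8 of 11 cells and Npas1, a bHLH-PAS factor, in 9 of 11, at up to 2362 CPM. Cnr1, the cannabinoid receptor, stood at 1687 against 205 CPM and Id2, an inhibitor of bHLH factors, at 994 against 105. Nr2f2, the nuclear receptor COUP-TFII, was at nearly the same level in both (287 in Cajal Retzius, 289 in CGE-derived cells, log2 difference 0.70), while its relative Nr2f1 was 3.19-fold higher in CGE-derived cells. Npy, the neuropeptide Y gene, was carried by CGE-derived cell 5 (1765 CPM), and the next highest cell of that group held 1.12.

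Htr3a, the gene of the driver, was found in all 11 CGE-derived cells at 191 to 4076 (median 1251) CPM and in 9 of 12 Cajal Retzius cells at 0 to 398 (median 43.5). It was 15.7-fold higher in CGE-derived cells (log2 difference -5.80), and the groups overlapped. Of the Cajal Retzius cells 5 held less than 1 CPM of it, although all came from the line named for it.

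**Figure D3:**
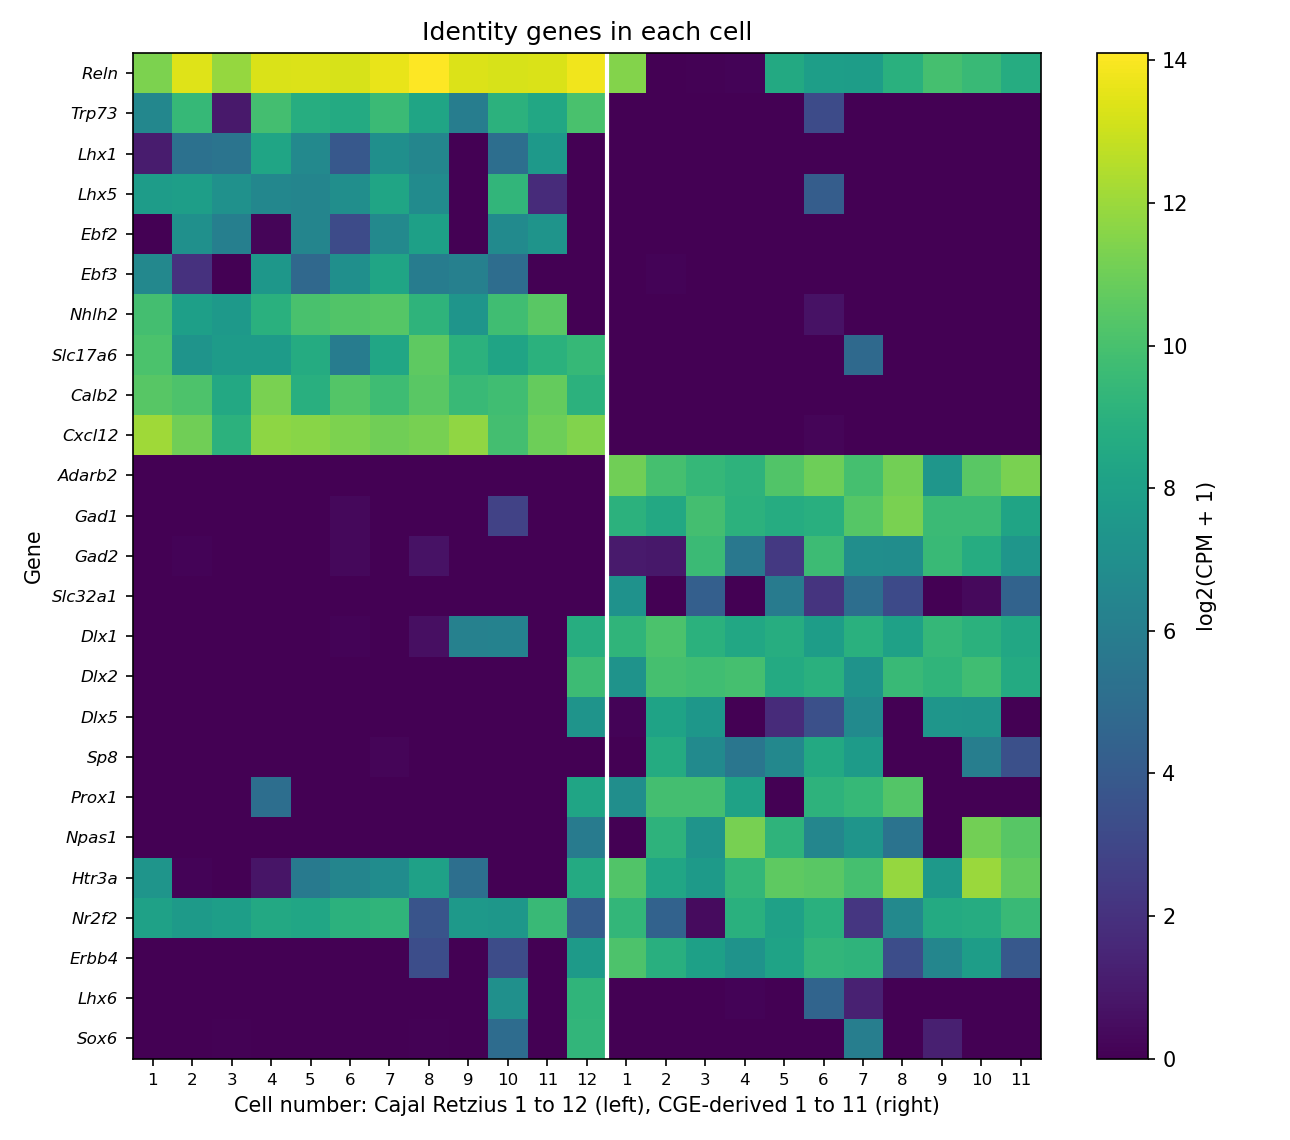
Rows are genes of cell identity and columns the 23 cells, Cajal Retzius 1 to 12 left and CGE-derived 1 to 11 right of the white line, coloured by log2(CPM + 1) from 0 (dark) upward. Cajal Retzius cell 12 is the column with signal for Dlx1, Dlx2, Dlx5, Lhx6 and Sox6 beside full Reln, Calb2 and Cxcl12, and no signal for Adarb2, Gad1 or Gad2.

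Single cells carried much of the interneuron signal of the Cajal Retzius group. Cajal Retzius cell 12 held 819 CPM of Dlx2, 156 of Dlx5, 314 of Prox1 and 203 of Erbb4. It also held Lhx6 (595 CPM) and Sox6 (624), factors of interneurons from the medial ganglionic eminence, of which the CGE-derived cells held at most 22.6 and 63.9 CPM. At the same time it held 14251 CPM of Reln, 1050.3 of Trp73, 2788 of Cxcl12 and 689 of Slc17a6, and no count of Adarb2, Gad1, Gad2, Lhx1, Lhx5, Nhlh2 or Emx2. Its total was 13315519 counts in 4140 genes, the fewest genes of its group. Without it Dlx2 and Dlx5 were at 0 CPM in Cajal Retzius cells, Prox1 at 3.56 (all from cell 4), and Dlx1 at 14.4 (from cells 6, 8, 9 and 10). Cajal Retzius cell 10 held 133 CPM of Lhx6, 30.6 of Sox6, 75.8 of Dlx1 and 110.1 of Cadm1. Summed ventral forebrain factors reached 2167 CPM in cell 12, 657 in cell 9, 246 in cell 3 and 218 in cell 10. Summed markers of medial interneurons reached 2929 CPM in cell 12, 349 in cell 3 and 235 in cell 10. Each sum was lower in the other Cajal Retzius cells. The source of these transcripts was not tested.

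Among the cells of shared gene number 8 of the 11 ventral factors were called higher in CGE-derived cells. With cell 12 left out, 12 of 17 Cajal Retzius cell markers were again called higher in Cajal Retzius cells, 10 of 11 ventral factors and 11 of 17 caudal markers were again called higher in CGE-derived cells, and calls among the 11 markers of medial interneurons went from 1 (Erbb4) to 3. Erbb4, the neuregulin receptor of migrating interneurons, was 17.3-fold higher in CGE-derived cells (9.2 to 1137, median 257 against 0 to 203, median 0 CPM). The highest Cajal Retzius value was that of cell 12. Without it the Cajal Retzius level of Erbb4 was 2.25 CPM and the fold 149.

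Reelin pathway genes were called in both directions. Reln itself and the integrin genes Itga3 (50.5 against 1.4 CPM) and Itgb1 (131 against 41.8), along with the microtubule motor regulator Pafah1b1 (92.9 against 41.01), were called higher in Cajal Retzius cells. Both lipoprotein receptors that bind reelin were called higher in CGE-derived cells: Vldlr was 7.29-fold higher (8 of 11 against 3 of 12 cells with a count, and 17.3-fold without cell 12) and Lrp8, or ApoER2, 4.97-fold (10 of 11 against 8 of 12). The adaptor Dab1, which carries the signal inside the cell, was 12.1-fold higher in CGE-derived cells, but its cells ranged from 0 in 5 of them to 1748 CPM in cell 9, and without that cell the level was 102 CPM against 22.5. Without Cajal Retzius cell 12 the fold of Dab1 was 29.3. The kinase Fyn (2.23-fold), the adaptor Crkl (2.68-fold) and the Cdk5 activator Cdk5r1 (3.28-fold) were also higher there. Of 14 pathway genes 4 (28.6%) were called toward Cajal Retzius and 6 (42.9%) toward CGE-derived cells, where 16.4% and 5.24% of all genes were. Among the cells of shared gene number Pafah1b1 and Crkl were not called, and Pafah1b1 was not without the cells with microglia markers. Vldlr and Lrp8 overlapped between the groups cell by cell.

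Of 17 forebrain patterning factors 4 were called higher in Cajal Retzius cells, namely Emx2 (66.3 against 0.0511 CPM, 11 of 12 against 1 of 11 cells), Lhx2, Dmrta2 and Zic5, of which Emx2 and Lhx2 were called among the cells of shared gene number. Of the same 17 factors 1 was called higher in CGE-derived cells, so that the shares, 23.5% and 5.88%, lie near those of all genes. Of 16 projection neuron genes 4 (25%) were called toward Cajal Retzius (Tle4, Cux1, Cux2, Bhlhe22) and 3 (18.8%) toward CGE-derived cells (Mef2c, Bcl11b, Neurod2). The shares over all genes were 16.4% and 5.24%, and the list's median was -0.11. Without cell 12 the calls were 3 and 4, with Cux2 and Neurod2 lost and Neurod6 and Sox5 gained toward CGE-derived cells. Tle4, a corepressor of deep layer neurons, had 63.7 CPM against no count, while Slc17a7, the vesicular glutamate transporter VGLUT1, had no count in any of the 23 cells.

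Of the 3 neurexins, presynaptic adhesion receptors on which the series centres, 1 was called. Nrxn3 stood at 51.4 to 1623 (median 384) CPM in the CGE-derived cells. Of the Cajal Retzius cells only 6 and 7 held a count, at 0.233 and 1.83 CPM, so the groups did not overlap (log2 difference -8.04). Nrxn2 differed by -0.99 and was not called, at 0 to 75.3 (median 3.82) CPM in CGE-derived and 0 to 27.2 (median 2.64) in Cajal Retzius cells. It was called higher in CGE-derived cells among the cells of shared gene number and without the cells with microglia markers. Splice forms were not analysed here.

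The list of neurexin ligands and partners had calls on both sides. It also holds teneurins and FLRT proteins, which are ligands of latrophilins. Of its 34 genes 10 (29.4%) were called higher in Cajal Retzius cells and 5 (14.7%) in CGE-derived cells (median 0.38). The shares over all genes were 16.4% and 5.24%. Car10, a carbonic anhydrase-related neurexin ligand, ranged over 102 to 1542 (median 413) CPM in Cajal Retzius cells and had no count in CGE-derived cells. Its relative Car11 was 16.2-fold higher, the calsyntenins Clstn1 and Clstn2 were 6.2-fold and 34.5-fold higher, and the latrophilin ligand Flrt3 7.42-fold. On the CGE-derived side most calls were of these latrophilin ligands, the teneurins Tenm2 (126 against 0.68 CPM) and Tenm3 (28.5 against 0.513), with Flrt1 and Flrt2. Tenm1 (58.2 CPM against 2 counts in all) and Tenm4 (3.67-fold, not called after thinning) went the other way. Cadm1, a homophilic synaptic adhesion molecule, ranged over 4.44 to 3599 (median 499.7) CPM in CGE-derived cells and was at or below 0.233 in all Cajal Retzius cells but cell 10.

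Of 26 RNA-binding splicing regulators 8 were called toward CGE-derived and 3 toward Cajal Retzius cells, where 5.24% and 16.4% of all genes were (median -0.26). Qk, the quaking protein, was 40.9-fold higher in CGE-derived cells (10 of 11 against 4 of 12 cells) and Khdrbs1, or SAM68, 4.32-fold (295 against 68.4 CPM). Ptbp1, a repressor of neuronal exons, was 7.78-fold higher, and Rbfox3, the NeuN antigen, 10.5-fold, or 21.03-fold without Cajal Retzius cell 12. Of the muscleblind genes Mbnl3 was not called, and Mbnl2 was 22.2-fold and Mbnl1 3.86-fold higher in Cajal Retzius cells, along with Celf6 (57.3-fold). Its relatives Celf1 and Celf2 were 2.5-fold and 3.53-fold higher in CGE-derived cells.

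Synaptic vesicle and potassium channel genes were called toward Cajal Retzius cells about as often as all genes. Among 24 presynaptic release genes 5 were called higher there and 2 in CGE-derived cells, and the list's median was 1.79. Syp, the vesicle protein synaptophysin, stood at 134 to 1029.8 (median 462) CPM in Cajal Retzius cells and was found in CGE-derived cells 5 (122) and 7 (203) only. Cplx2, a complexin, was 47.7-fold higher in CGE-derived cells (148 against 3.1 CPM). Of 35 potassium and HCN channel genes 8 were called higher in Cajal Retzius cells and 1, Kcnc1, in CGE-derived cells. The 8 included Kcnh7 (397 against 28.1 CPM, 12 of 12 against 5 of 11 cells), an ERG-type channel, and Kcnip2, a Kv4 partner (202 against 0.119). The shares of these lists, 20.8% and 22.9%, lie close to the 16.4% over all genes. Among the cells of shared gene number the presynaptic calls were 7 and 3.

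Of the voltage-gated calcium channel genes, the alpha2delta genes Cacna2d1, Cacna2d2 and Cacna2d3 were called higher in Cajal Retzius cells, at 442, 63.8 and 288 CPM against 2.7, 0 and 144. Cacna2d3 was not called without Cajal Retzius cell 12 (233 against 144 CPM) or after thinning. The beta subunits Cacnb2, Cacnb3 and Cacnb4 were called higher in CGE-derived cells, at 48.5, 86.6 and 109 CPM against 1.46, 20.2 and 9.67. Cacna1g, a T-type pore subunit, was 14.7-fold higher in CGE-derived cells, whereas Nalcn, a sodium leak channel, was 10.2-fold higher in Cajal Retzius cells. Of 25 sodium and calcium channel genes 5 (20%) were called toward Cajal Retzius and 4 (16%) toward CGE-derived cells. The shares over all genes were 16.4% and 5.24%. Among the cells of shared gene number 8 and 7 of the 25 were called.

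Of 18 ionotropic glutamate receptor genes 3 were called toward Cajal Retzius cells (Gria1 2.18-fold, Grin1 2.81-fold, Grik4 7.17-fold) and 4 toward CGE-derived cells, which is 16.7% and 22.2% where 16.4% and 5.24% of all genes were. Gria1 and Grin1 were not called among the cells of shared gene number. Grin2b, the NMDA receptor subunit of immature neurons, was 6.76-fold higher in CGE-derived cells and present in all 11, and the kainate receptor gene Grik2 stood at 146 against 1.69 CPM. Of 21 GABA and glycine receptor and chloride transporter genes only Glrb (2.1-fold toward Cajal Retzius) and Glra2 (no count in Cajal Retzius cells, 28.5 CPM) were called, and neither was among the cells of shared gene number. Among 32 receptors for modulators the alpha2 adrenergic genes Adra2a (20.3 CPM in 6 of 12 cells against 0) and Adra2c (21.9 CPM in 4 of 12) and the serotonin receptor Htr1f were called toward Cajal Retzius cells, and Htr3a and Cnr1 toward CGE-derived cells. These calls are 9.38% and 6.25% of the modulator list, below and near the shares over all genes. Among the cells of shared gene number none of the 3 toward Cajal Retzius cells was called, while Htr3a and Cnr1 were.

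Guidance genes were divided within families. Of 42 genes 8 (19%) were called toward Cajal Retzius and 11 (26.2%) toward CGE-derived cells (median -0.03). The shares over all genes were 16.4% and 5.24%. Robo2, a receptor of Slit proteins, was 10.4-fold higher in Cajal Retzius cells, while its relative Robo1 was 4.46-fold higher in CGE-derived cells, and the ligand Slit1 was found in 8 of 11 CGE-derived cells (153 CPM) and no Cajal Retzius cell. Among plexins, receptors of semaphorins, Plxnc1 (49.8 against 0.111 CPM) and Plxnd1 (37.2 against 0.52) were called toward Cajal Retzius, and Plxna1 (59.6 against 17.04) and Plxna2 (124 against 1.03) toward CGE-derived cells. The ligands Nrg1 and Nrg3 were on the Cajal Retzius side and their receptor Erbb4 on the other. Of 26 cadherins and protocadherins 4 (15.4%) were called toward Cajal Retzius and 6 (23.1%) toward CGE-derived cells. Among the cells of shared gene number 2 and 4 of the 26 were called. Fat3 (2.39-fold, not called among the cells of shared gene number) was called toward Cajal Retzius cells. Pcdh18 (91.4 CPM against no count) was called toward CGE-derived cells.

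Among 5 chemokine genes and receptors Cx3cl1, the fractalkine gene, was called with Cxcl12 toward Cajal Retzius cells (6 of 12 against 3 of 11 cells), but not without cell 12 (13.3 against 8.3 CPM), among the cells of shared gene number or without the cells with microglia markers. Cxcl14 was called the other way, at 72.9 CPM in 6 of 11 CGE-derived cells against 0.00641. Of 12 calcium-binding proteins 5 (41.7%) were called toward Cajal Retzius cells, where 16.4% of all genes were. Besides Calb2 these were Ncald and the hippocalcin family genes Hpca (7.85-fold), Hpcal1 and Hpcal4. Ncald lost its call without cell 12, and Ncald and Hpcal1 lost theirs among the cells of shared gene number and without the cells with microglia markers, which left 3 of 12. Necab1, another calcium-binding protein gene, had no count in Cajal Retzius cells and 163 CPM in 6 of 11 CGE-derived cells. Of 16 neuropeptide genes 1 was called, Pnoc, which encodes the nociceptin precursor, with counts in 8 of 11 CGE-derived cells and in 1 Cajal Retzius cell. Of 7 genes of glutamate transport and supply 3 were called toward Cajal Retzius cells, among them Slc17a6 and the glutamate transporter gene Slc1a1 (16.4-fold), but Slc1a1 was not called among the cells of shared gene number, where Slc38a1 was called toward CGE-derived cells, and without the cells with microglia markers only Slc17a6 was called. The list's median of 1.33 went to 0 in the 4 cells of shared title range.

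Of 20 genes of cell death and survival 4 were called toward Cajal Retzius and 3 toward CGE-derived cells, 20% and 15% where 16.4% and 5.24% of all genes were (median 0.17). Besides Trp73 they were Bbc3, the pro-apoptotic p53 target Puma, at 0 to 278 (median 43.6) against 0 to 20.3 (median 0) CPM, Diablo, an antagonist of caspase inhibitors, at 630.3 against 34.1 CPM, and Bdnf, a neurotrophin, at 35.4 CPM in 4 of 12 cells against 0. Toward CGE-derived cells stood Trp53 (2.02-fold), the protective Bcl2l1 (2.6-fold) and the pro-apoptotic Bcl2l11, or Bim (8.05-fold). Trp53 was not called without Cajal Retzius cell 12 (1.85-fold), nor Bdnf among the cells of shared gene number, and without the cells with microglia markers neither Bdnf nor Bcl2l1 was called.

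Activity and stress genes were called toward Cajal Retzius cells more often than all genes were. The list of immediate early and heat shock genes had 7 of 13 members (53.8%) called higher in Cajal Retzius cells and 0 in CGE-derived cells (median 2.41). The shares over all genes were 16.4% and 5.24%, so 0 calls toward CGE-derived cells lie near the share for a list of this size. Fos, an immediate early factor, ranged over 0 to 2493 (median 265) CPM in Cajal Retzius cells and had no count in any CGE-derived cell, which makes it at least 36271-fold higher. Cells 3, 4, 5 and 10 held more than 1500 CPM, cells 2 and 8 none, and the 4 cells of shared title range 13.8, 1777, 806 and 169.7. Junb was found in 9 of 12 Cajal Retzius cells (280.4 CPM) and 2 of 11 CGE-derived cells (0.426), and Ier2 in 9 of 12 and 2 of 11. The heat shock genes Hspa1a (27.3 CPM in 4 of 12 cells against 0) and Hsph1 (2.05-fold) were called as well. By mean log2 level across the 8 type labels of the line other than Undefined, Cajal Retzius cells ranked 1 for Hspa1a. They ranked 2 for Fos, Ier2 and Hsph1, below Glutamatergic 2 cells, and 4 for Junb. The CGE-derived cells ranked 8, the lowest place, for Fos, Ier2, Hsph1 and Junb, and 7 for Hspa1a. The differences in these genes thus also reflect low levels in CGE-derived cells. Ranks are given only for the members named here. Fos stood at 785 CPM in Glutamatergic 2 cells. Among the cells of shared gene number 5 of the 13 were called, without Hsph1 among them, and all 7 were without cell 12. Hspa1a was not called without the cells with microglia markers. The list's summed level ranged from 352 to 6602 CPM in Cajal Retzius cells and from 84.3 to 1347 in CGE-derived cells, and its part in the other differences was not tested.

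**Figure D4:**
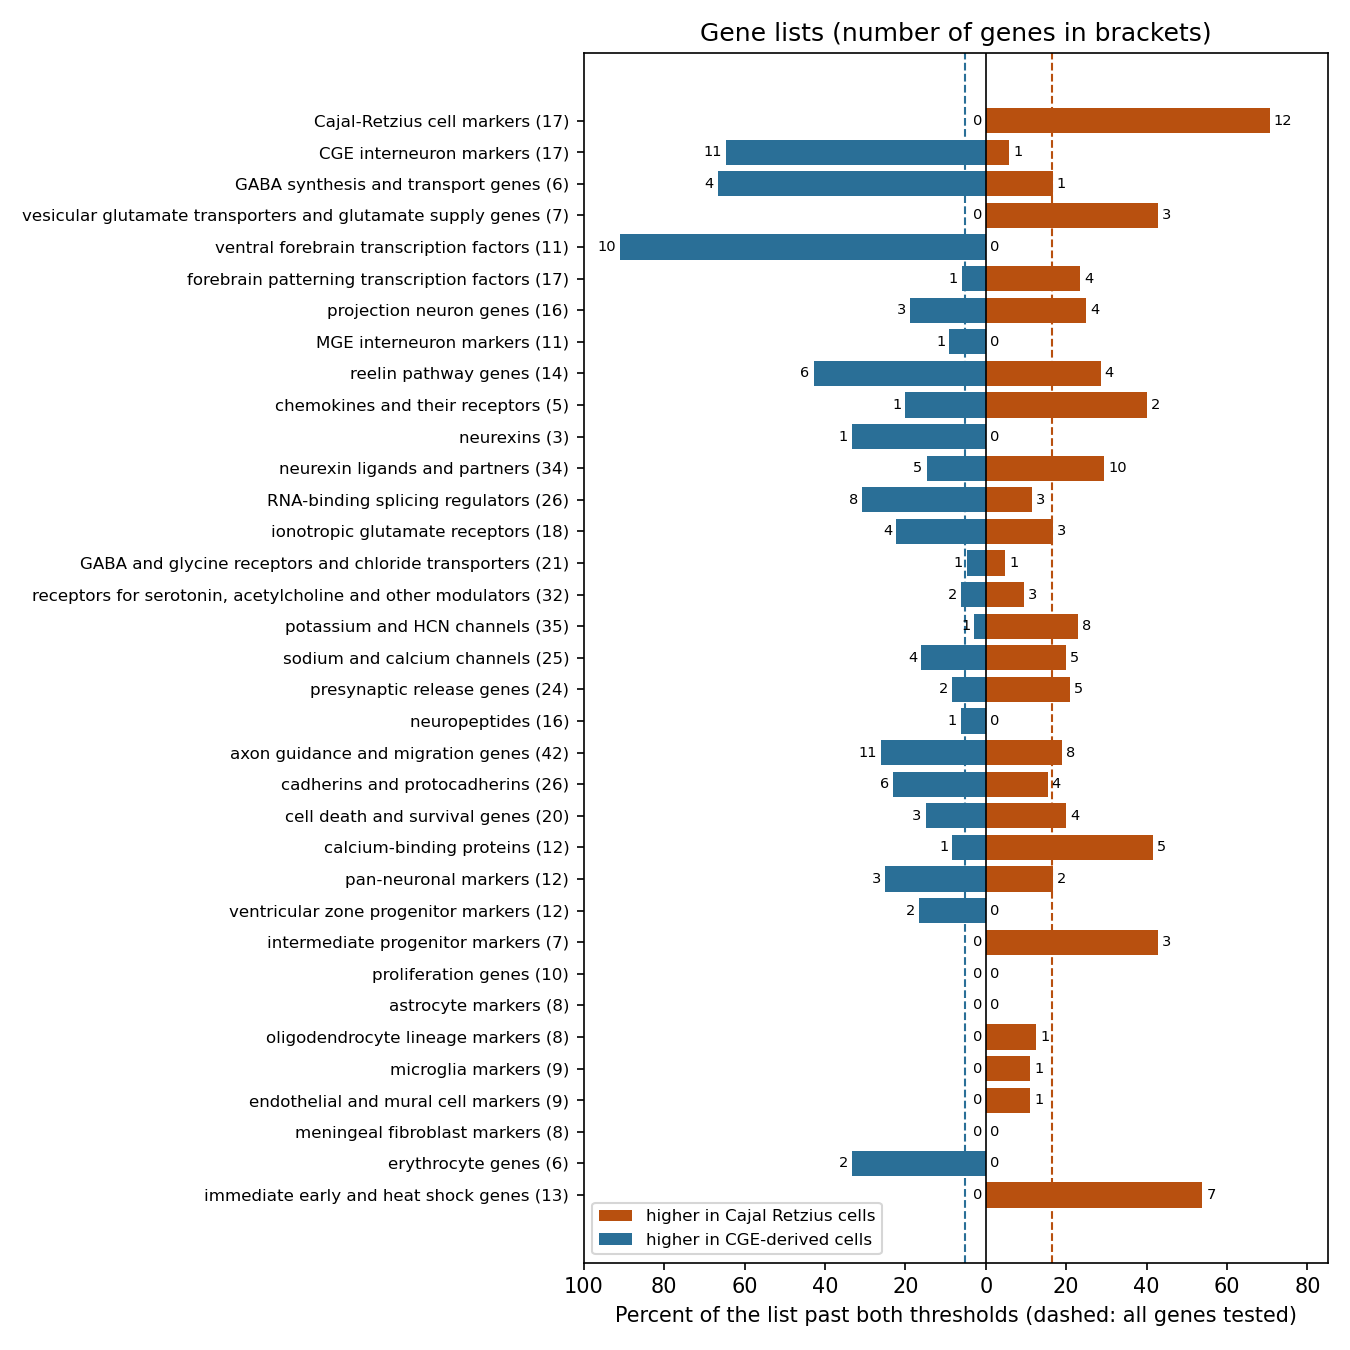
Bars give, for each of 35 gene lists, the percent of its genes called higher in Cajal Retzius cells (orange, to the right) and in CGE-derived cells (blue, to the left), with the number of calls at each bar and the list's size in brackets. Dashed lines mark 16.4% and 5.24%, the shares over all 15925 genes. The lists of Cajal Retzius cell markers, CGE interneuron markers and ventral forebrain factors reach far past them, at 70.6%, 64.7% and 90.9%. The labels may rest on such genes, so these shares are no independent evidence of the labels.

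Of 12 pan-neuronal markers 2 (16.7%) were called toward Cajal Retzius cells, Gap43 and Ina, and 3 (25%) toward CGE-derived cells, Rbfox3, Ncam1 and Nefm. The shares over all genes were 16.4% and 5.24%. Gap43, a growth cone protein, was 18.4-fold higher in Cajal Retzius cells (1605 to 6044, median 2909 against 0 to 565, median 105 CPM, no overlap). Among markers of other cells, none of 10 proliferation genes, 8 astrocyte and 8 meningeal fibroblast markers was called, and 1 astrocyte marker, Sox9, was called toward Cajal Retzius cells without cell 12. Summed meningeal markers reached at most 25.2 CPM in a Cajal Retzius cell and 27.2 in a CGE-derived cell. Meningeal cells make Cxcl12 as well, and their part in its level was not tested. Of 12 ventricular zone progenitor markers 2 were called toward CGE-derived cells, Ptprz1 (233 against 2.01 CPM) and Sox2 (23.8 against 4.08, and against 0 without Cajal Retzius cell 12), and the list's sum was highest in CGE-derived cell 2 at 4028 CPM. Of 7 intermediate progenitor markers 3 (42.9%, against 16.4% of all genes) were called toward Cajal Retzius cells, Btg2, Mfap4 and Gadd45g. So were 1 of 8 oligodendrocyte lineage markers (12.5%), Cspg4, and 1 of 9 endothelial and mural cell markers (11.1%), Rgs5. Among the cells of shared gene number Mfap4 and Cspg4 were not called. Of 9 microglia markers 1 was called toward Cajal Retzius cells, and P2ry12 had no count. Without the 3 Cajal Retzius cells and 1 CGE-derived cell of at least 100 CPM of these markers 2428 and 877 genes were called. Haemoglobin genes, a sign of red blood cells, summed to at most 53.4 CPM in Cajal Retzius and 331 in CGE-derived cells, and their near-identical copies make single members uncertain.

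Some further genes without overlap lie outside the naming rule and were chosen after their values were seen. Toward Cajal Retzius cells these were Cd200, an immunoglobulin-family ligand (2093 to 4333, median 2833 against 0 to 934, median 261 CPM), Cntnap2, a neurexin-like axonal protein (5.33 to 835, median 233 against 0 to 3.46, median 0), and Tmem163, a zinc transporter (135 to 629.5, median 267 against 0). Prn and Prnp share exons, Tmem163 and Slc7a10 overlap genes on the other strand, and whether the counting used strand is not stated, so their counts are uncertain. Toward CGE-derived cells Nsg2, an endosomal protein of neurons, stood at 110.5 to 968 (median 319) against 0.26 to 101 (median 61.2) CPM.

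The 12 genes of largest difference in each direction were chosen by their values in the Cajal Retzius and CGE-derived cells. High or low ranks of these groups among the type labels follow in part from that choice. No share over all called genes was computed beside them. Across the 8 type labels of the Htr3a line other than Undefined, the 12 genes of largest difference toward Cajal Retzius cells all had their highest mean log2 level in Cajal Retzius cells. Of the 12 toward CGE-derived cells 8 had theirs in CGE-derived cells. The exceptions were Cadm1 and Sez6, which were present in glutamatergic types, Nrxn3, highest in MGE-derived 2 cells (524 CPM), and Cd24a, a surface glycoprotein of young neurons, highest in the 3 GABAergic cells (1852). Cadm1 was at 1031 CPM in Glutamatergic 1 and 767 in CGE-derived cells, against 13.5 in Cajal Retzius cells. Sez6, a dendrite membrane protein, was at 649.7 CPM in Glutamatergic 2, 405 in CGE-derived and 23.5 in Cajal Retzius cells. For Cadm1, Sez6, Cd24a, Nrxn3 and Sox11, as for Adarb2, the Cajal Retzius cells had the lowest mean log2 level of all 8 labels.

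**Figure D5:**
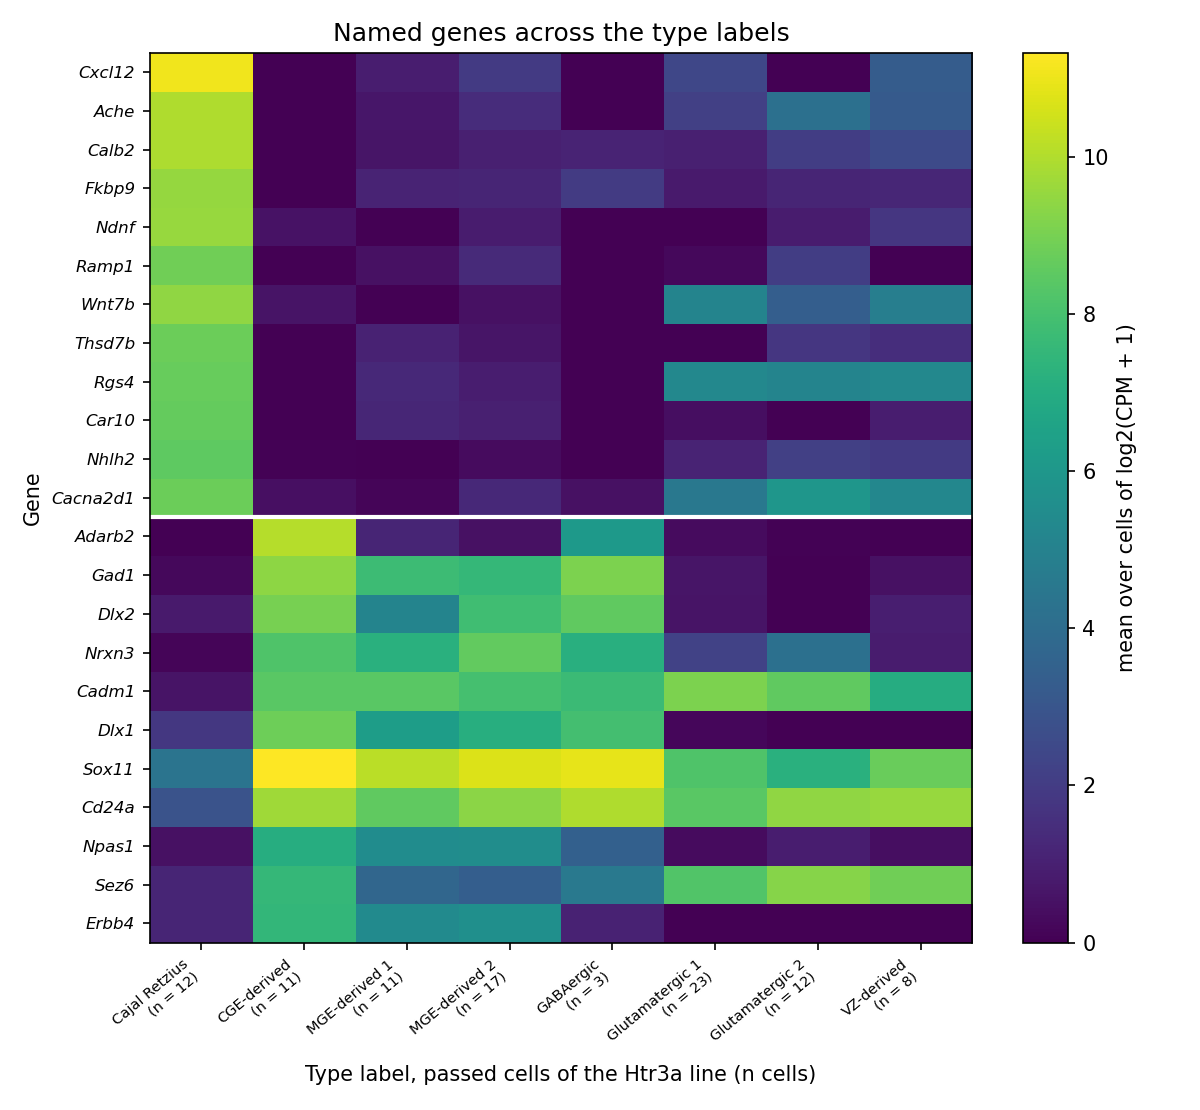
Rows are the 12 genes of largest difference toward Cajal Retzius (above the white line) and 11 of the 12 toward CGE-derived cells (below), columns the type labels of the passed Htr3a line cells with their number, and colour the mean over cells of log2(CPM + 1). The upper genes are bright in the Cajal Retzius column, while Cadm1, Sox11 and Cd24a are bright in most columns and dark in that of the Cajal Retzius cells. The genes were chosen by their levels in the Cajal Retzius and CGE-derived cells.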

How the data were processed

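The deposited tables hold whole-number counts of reads per Ensembl gene for 162 single-cell libraries, made by the authors with Trimmomatic, STAR and featureCounts on build GRCm38 per the submitters' processing notes, which give no version. A second deposited table, of counts by gene symbol, was held here only in part. In another table, the authors' normalized signal equals counts over 1 factor per cell in 99.8% of nonzero values (within 0.1%). CPM, log2(CPM + 1) with a pseudocount of 1, sums and calls were computed here from the counts, without UMIs or doublet calling, with Python 3.11.15, numpy 2.4.6, pandas 2.3.3, scipy 1.17.1 and matplotlib 3.10.9, and checked on simulated data. Of 22880 identifiers 310 had no symbol. The 95% ratio intervals cover counting error only. Each cell is 1 sample, and no pair of the 23 cells held equal counts in all genes.

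Genes named were the 12 largest differences in each direction among called genes with a symbol, a count in at least 50% of the higher group's cells, at least 20 CPM, and a 2-fold difference also without the highest cell, as well as the first 3 genes without overlap in each direction, the markers, the neurexins, Htr3a and list members. The members and lists were chosen with earlier results of these data known. Some genes are not reported here. Alternatives were other pseudocounts, tables, filters, depths, call rules and leaving out cells.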

Additional observations from a re-analysis of the deposited data

How the results depend on the processing

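The main counts were 2604 genes called higher in Cajal Retzius and 835 in CGE-derived cells. A pseudocount of 10 gave 1677 and 518, and the symbol table held in part gave 1065 and 324 of 6763 genes tested. Cells in the shared range of gene number gave 1256 toward CGE-derived cells and 16 genes without overlap on that side. The log2 difference alone called 5015 toward Cajal Retzius cells, and summed counts alone called 1809 toward CGE-derived cells; the causes of these moves, other than the looser rules and the smaller table, were not tested. Leaving out 1 cell at a time gave 2390 to 2768 and 718 to 941 called, and 26 to 38 and 8 to 12 without overlap. The authors' normalized table gave 2605 and 941. The median of the presynaptic list was -0.44 in the partial table, and that of the glutamate supply list was 0 with only Cajal Retzius cells in the shared range of title numbers. Among the named genes 235 values stayed within 1 SD between cells of the main value, 39 moved further and none reversed. Leaving out Cajal Retzius cell 12 or the cells with microglia markers, and the shared range of title numbers, were alternatives chosen after seeing the data. No paired analysis was possible because each sample is 1 cell and the labels give no number shared between the groups. Read depth alone limits what a count of 0 shows to 0.0192 CPM in Cajal Retzius and 0.0256 CPM in CGE-derived cells. Because reads can be copies of 1 molecule, these are not limits on molecules in a cell.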
